A study of Mus musculus with 50 samples.

Results

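RNA of 10 genes that mark blood and blood vessels was followed through 28 RNA-seq libraries of mouse spinal motor neurons and of motor neurons made from embryonic stem cells. The genes were listed by symbol, 10 of the 55385 in each gene file, and the list was chosen by its RNA level, since that was high in the libraries of E13.5 (E, embryonic day). Their E13.5 values are therefore described without a test, and so are comparisons that use those libraries. The genes fall into 4 erythroid genes, *Hbb-y*, *Hba-x*, *Hba-a2* and *Alas2*, and 6 endothelial genes, *Kdr*, *Flt1*, *Esam*, *Pecam1*, *Cdh5* and *Cldn5*.

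In vivo there were 18 RNA libraries, with 3 libraries at each of E10.5, postnatal day (P) 4, P21 and P56 and 2 at each of E13.5, P13 and the age of 2 years. All mice were of C57BL/6 strains. The E10.5 libraries came from whole GFP-positive cells sorted from cords of HB9-GFP embryos. At E13.5 and later the RNA came from nuclei of Chat-Cre;SUN1-GFP-3xMYC mice, as the labels name them (the study's methods name the reporter SUN1-2xsfGFP-6xMYC), in which Cre under the choline acetyltransferase gene labels the nuclear envelope of cholinergic neurons with GFP, interneurons and visceral motor neurons included, and the nuclei were captured on beads (the INTACT method). The 10 culture libraries came from a stem cell line of the same genotype: 2 of embryoid bodies on the day of dissociation (DIV0), and, on cortical astrocytes from P2 mice, 2 after 7 days in vitro (DIV7), 3 after 28 days (DIV28) and 3 after 28 days with 1 µM tetrodotoxin, which blocks sodium channels (DIV28 TTX). The library placed here as DIV28 replicate 3 carries a DIV0 title. The *Flt1* changes from DIV7 to DIV28 and with TTX are also given without it, and the other culture tests include it. Chromatin accessibility was measured by ATAC-seq in 22 further libraries, 2 for each age and culture condition, from whole sorted cells at E10.5 and from nuclei sorted by flow cytometry at the other ages. Cells and nuclei were thus isolated differently at E10.5 than later, which cannot be told apart from age in comparisons with E10.5. The methods give brachial and lumbar cord for the nuclei used for RNA. The E10.5 cells and the in vivo nuclei for ATAC-seq included thoracic cord too. In RNA comparisons with E10.5 this also cannot be told apart from age. Per the study's methods, the bead-captured nuclei for RNA were less pure at E13.5 and P4 than later and carried some blood vessel contamination at both ages, while the nuclei sorted for ATAC-seq were of high purity at every age.

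RNA libraries held 2704682 to 21823500 counts (median 4292675), and those of E13.5 held 5217950 and 12731260. Levels are given as normalised counts, which are expected counts divided by a size factor per library, or as TPM, which also divides by transcript length, where genes are compared with each other. *Chat*, the enzyme that makes acetylcholine, and *Isl1*, a motor neuron transcription factor, mark the labelled cell type. At E13.5 they stood at 225 and 113 and at 585 and 299 normalised counts in replicates 1 and 2, against 450 to 495 for *Chat* and 358 to 424 for *Isl1* at P4. The labelled cells were therefore represented at E13.5, with lower *Chat* in both libraries than in any P4 library.

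Red cells of the early mouse embryo are made in the yolk sac and circulate with a nucleus, while definitive red cells from the fetal liver, and later the marrow, lose theirs. Embryonic haemoglobin uses the ζ chain encoded by *Hba-x* and the ε-like chain of *Hbb-y*; definitive cells use the α chains of *Hba-a1* and *Hba-a2* and the β chains of *Hbb-bs* and *Hbb-bt*. Vessels grow into the spinal cord from a surrounding plexus under the control of vascular endothelial growth factor (VEGF) acting on *Kdr*, the main signalling receptor, and *Flt1*, which binds VEGF tightly with weak signalling. Endothelial cells are joined by the VE-cadherin of *Cdh5*, by *Pecam1* and *Esam*, and, where a blood-brain barrier forms, by the tight junction protein of *Cldn5*.

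The members lie on 7 chromosomes of mm10. The globin genes lie in the α cluster, *Hba-x* at chr11:32276400-32278116 (+) and *Hba-a2* at chr11:32296489-32297298 (+), and in the β cluster, *Hbb-y* at chr7:103851749-103853216 (-). *Alas2* lies at chrX:150547375-150570638 (+). *Kdr* (chr5:75932827-75978458, -) and *Flt1* (chr5:147561604-147726011, -) share a chromosome, and the junction genes are *Esam* (chr9:37528078-37538319, +), *Pecam1* (chr11:106654217-106750628, -), *Cdh5* (chr8:104101625-104144511, +) and *Cldn5* (chr16:18776847-18778262, +). RefSeq promoters (GRCm38.p6) matched 7 of the 10 genes, all but *Esam*, *Pecam1* and *Cdh5*. The bases upstream of the start are shown for 3 genes whose promoters held no ATAC peak in any in vivo library and 3 whose promoters held a peak in both E13.5 libraries, since this contrast recurs below. Capitals mark, on either strand, the motif of erythroid zinc finger factors, spelled AGATAA. They also mark the box bound by KLF factors, spelled CCACCC, the motif of ETS factors, spelled AGGAAG, and the core promoter box spelled TATAAA. No peak was present in vivo at *Hbb-y* (chr7:103853217-103853457, -), *Hba-a2* (chr11:32296242-32296488, +) and *Alas2* (chrX:150547167-150547374, +).
Hbb-y: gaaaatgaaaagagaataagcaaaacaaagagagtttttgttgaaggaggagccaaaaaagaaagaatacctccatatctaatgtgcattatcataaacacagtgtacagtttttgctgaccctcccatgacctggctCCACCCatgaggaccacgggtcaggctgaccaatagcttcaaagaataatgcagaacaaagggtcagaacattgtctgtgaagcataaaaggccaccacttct
Hba-a2: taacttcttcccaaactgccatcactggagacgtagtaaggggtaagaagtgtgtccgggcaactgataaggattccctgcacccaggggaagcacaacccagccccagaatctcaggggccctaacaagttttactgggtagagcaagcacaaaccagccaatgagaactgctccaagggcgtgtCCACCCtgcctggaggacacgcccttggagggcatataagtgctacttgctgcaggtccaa
Alas2: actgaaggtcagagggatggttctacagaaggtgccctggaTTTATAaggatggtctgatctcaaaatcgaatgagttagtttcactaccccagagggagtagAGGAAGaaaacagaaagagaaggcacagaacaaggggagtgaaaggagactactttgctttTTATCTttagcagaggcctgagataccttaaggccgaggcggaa
A peak was present in both E13.5 libraries at *Kdr* (chr5:75978459-75978705, -), *Flt1* (chr5:147726012-147726261, -) and *Cldn5* (chr16:18776597-18776846, +).
Kdr: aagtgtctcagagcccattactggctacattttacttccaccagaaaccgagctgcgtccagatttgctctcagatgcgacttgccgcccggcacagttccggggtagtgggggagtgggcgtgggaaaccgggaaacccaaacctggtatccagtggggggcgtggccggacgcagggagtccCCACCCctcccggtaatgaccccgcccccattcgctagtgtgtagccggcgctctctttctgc
Flt1: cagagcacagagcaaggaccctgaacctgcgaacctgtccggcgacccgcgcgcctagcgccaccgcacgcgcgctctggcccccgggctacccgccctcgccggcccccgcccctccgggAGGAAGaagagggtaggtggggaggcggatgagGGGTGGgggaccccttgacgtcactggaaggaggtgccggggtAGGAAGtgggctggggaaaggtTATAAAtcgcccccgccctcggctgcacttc
Cldn5: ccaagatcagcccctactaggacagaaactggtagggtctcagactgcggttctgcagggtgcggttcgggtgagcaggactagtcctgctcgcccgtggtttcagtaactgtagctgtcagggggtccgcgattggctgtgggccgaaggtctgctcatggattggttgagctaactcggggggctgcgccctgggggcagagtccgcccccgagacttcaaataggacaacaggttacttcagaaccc
In the RefSeq windows of 300 bases, which hold transcribed bases too (those before the first annotated start numbered 50 in *Hba-x*, 208 in *Alas2* and 241 to 250 in the others), *Alas2* was the only matched member with the erythroid zinc finger motif, present in 11.4% of 27025 promoters. The KLF box was present in *Hbb-y*, *Hba-x*, *Hba-a2*, *Alas2*, *Kdr* and *Flt1* and in 30.9% of promoters, the ETS motif in *Hba-a2*, *Alas2* and *Flt1* and in 35.1%, and the core promoter box in *Hba-x*, *Alas2* and *Flt1* and in 14.2%. An E-box, spelled CANNTG, was present in *Hba-x*, *Hba-a2*, *Kdr* and *Cldn5* and in 72.1%. The erythroid and core promoter motifs can share bases, as can an E-box with each of the others. Each motif was counted on its own, and a match is a description of the letters. The ratio of observed to expected CpG was 0.0714 in *Hbb-y*, 0.0853 in *Hba-x*, 0.188 in *Hba-a2*, 0.318 in *Alas2*, 0.476 in *Cldn5*, 0.689 in *Kdr* and 0.780 in *Flt1*, against a median of 0.389 over all promoters. The 4 erythroid promoters were thus below the median and the 3 endothelial ones above it, but with 7 of 10 members matched a comparison over the whole set is void.

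The embryonic globins were present at E13.5 and at 0 at every later age. *Hbb-y* stood at 5859 and 7562 normalised counts in the E13.5 libraries. At E10.5 it had 4, 0 and 0 counts, and all libraries from P4 on and all culture libraries had 0 counts. E13.5 was 7141-fold above E10.5 (95% interval from counts 2789 to 26207, counting error only). *Hba-x* stood at 945 and 1857 normalised counts at E13.5, had 9, 1 and 1 counts at E10.5, and was likewise at 0 in every other library. Against a floor of 3 counts over the P4 libraries together, E13.5 was at least 6107-fold higher for *Hbb-y* and at least 1363-fold higher for *Hba-x*. In bulk libraries, fewer cells of a type and less RNA per cell cannot be told apart.

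The definitive globin *Hba-a2* was high at E13.5 and remained countable at every later age in vivo. It stood at 6098 and 6416 normalised counts at E13.5, at 727, 564 and 525 at P4, at 129 and 112 at P13, at 97.6, 193 and 195 at P21, at 53.2, 58.0 and 28.1 at P56, and at 33.6 and 39.9 at 2 years. E13.5 was 10.1-fold and 10.6-fold above the P4 mean in its replicates. The order of the group means was E13.5, P4, P21, P13, P56 and 2 years, and neighbouring ranges overlapped between P21 and P13 and between P56 and 2 years. All 3 E10.5 libraries and all 10 culture libraries held 0 counts. The transcripts of *Hba-a1* and *Hba-a2* were identical in 537 of 538 aligned bases (99.8%), so how the authors' counting split reads between them is uncertain.

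*Alas2* encodes the erythroid form of the first enzyme of haem synthesis. It stood at 167 and 198 normalised counts at E13.5 and at 61.7, 43.7 and 47.4 at P4, with 0 counts in the 3 E10.5 libraries. From P13 on its libraries ranged from 2.64 to 14.1 normalised counts, and neighbouring groups in the order of means overlapped from P21 and P13 down. In culture it had 5 and 1 counts at DIV0, 0 in both DIV7 libraries and at most 2 in any later library. The E13.5 libraries were 3.28-fold and 3.88-fold above the P4 mean, so the ranges did not overlap.

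The mix of globins differed between E13.5 and P4. *Hbb-y* held 80.3% and 86.4% of the summed TPM of the β-like genes at E13.5 and 0 of it at P4, where *Hbb-bs* held 88.0% to 90.6% and *Hbb-bt* the rest. Among the α-like genes *Hba-x* held 6.16% and 11.8% at E13.5, while *Hba-a2* held 72.7% and 68.3% at E13.5 and 76.2% to 78.8% at P4. The embryonic gene thus dominated the β side and was a minor part of the α side at the same age. The ratio of summed α-like to β-like TPM was 1.46 and 1.35 at E13.5 and 1.98 to 2.28 at P4. The embryonic genes are distinguishable from the others by sequence, with 71.3% of aligned bases identical between *Hbb-y* and *Hbb-bs* and 66.2% between *Hba-x* and *Hba-a2*.

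**Figure D1:**
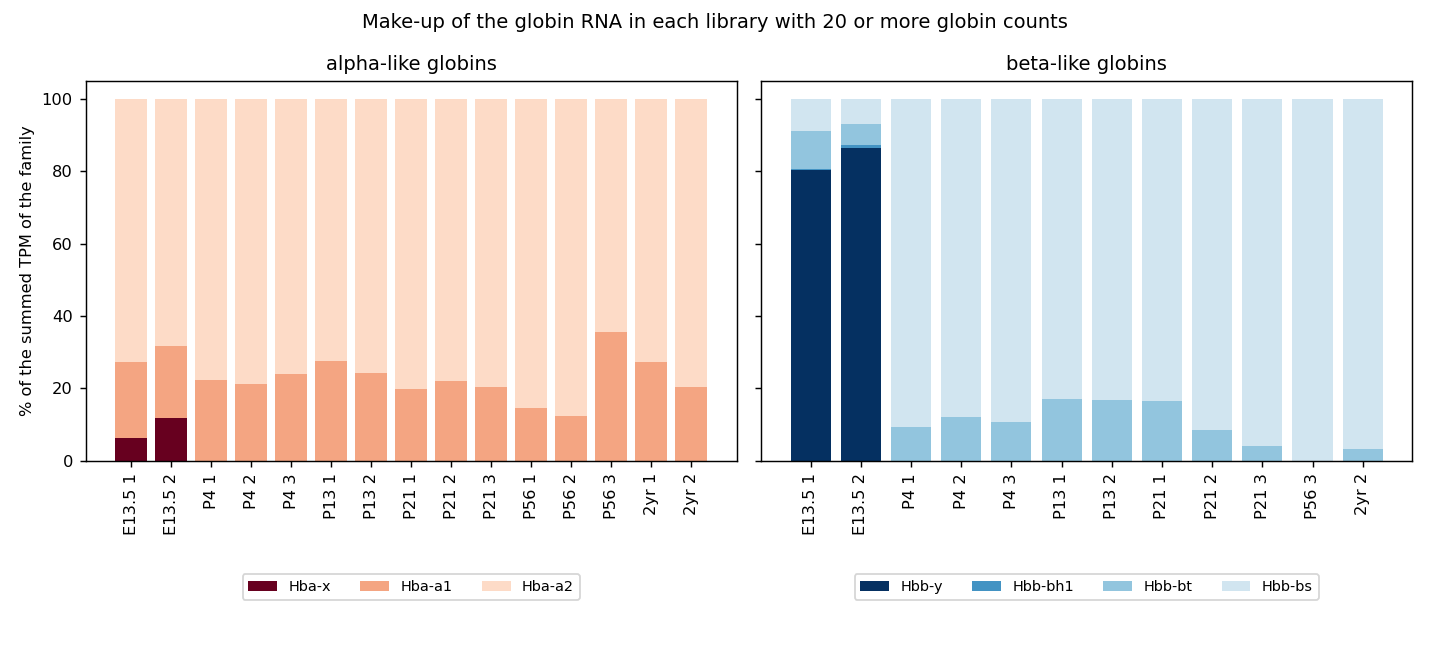
Share of each globin gene, in percent of the summed TPM of the α-like genes (left) and β-like genes (right), with 1 bar per library that held at least 20 globin counts. *Hbb-y* fills 80.3% and 86.4% of the β-like bar at E13.5 and is at 0 in every later library.

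Of the erythroid companions, red cell genes outside the list, the highest in TPM at E13.5 were *Hba-a1* (827 and 885 TPM), *Hbb-bt* (283 and 193 TPM) and *Hbb-bs* (237 and 229 TPM). The summed level of 22 companions was 848 and 944 CPM (counts scaled to the library total) at E13.5, 160 to 215 CPM at P4 and 65.8 to 77.3 CPM at P13. At E10.5 it was 18.8 to 27.8 CPM, with 12 to 15 of the 22 genes at 0. The sum stayed at 76.0 to 94.9 CPM at P21, 63.6 to 68.4 CPM at P56 and 64.1 and 65.6 CPM at 2 years. It was 37.2 to 102 CPM at DIV28, where no globin was counted, so it does not measure red cell RNA alone.

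The 6 endothelial genes were near 0 at E10.5, high at E13.5 and P4, lower at P13 and near 0 from P21 on. *Kdr* had 2, 9 and 6 counts at E10.5. It stood at 4708 and 9665 normalised counts at E13.5, at 2410, 1828 and 1767 at P4, at 129 and 185 at P13, at 5.59, 16.9 and 17.96 at P21, at 1.38 to 4.02 at P56 and at 1.34 and 2.08 at 2 years. E13.5 was 1936-fold above E10.5 (95% interval 1209 to 3324) and 2.35-fold and 4.83-fold above the P4 mean in its replicates, and no P4 library reached the E13.5 range.

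*Flt1*, the companion VEGF receptor, differed from *Kdr* in that P4 was as high as E13.5. It had 0, 0 and 1 counts at E10.5 and stood at 1478 and 3026 normalised counts at E13.5 and at 2324, 1745 and 1653 at P4. All 3 P4 libraries lay between the E13.5 libraries. It stood at 76.2 and 109 at P13, at 9.79, 32.3 and 17.96 at P21, at 4.12, 9.38 and 5.28 at P56 and at 1.34 and 9.36 at 2 years. Over the single count of E10.5 the ratio of E13.5 was 10311, with a counting interval of 1851 to 407254.

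The adhesion genes *Cdh5*, *Pecam1* and *Esam* followed *Kdr*. *Cdh5* had no count in the E10.5 libraries and stood at 3517 and 5896 normalised counts at E13.5, at 958, 730 and 652 at P4 and at 40.2 and 75.2 at P13. This made E13.5 at least 6971-fold higher than the floor at E10.5. *Pecam1* stood at 1861 and 3526 at E13.5, at 794, 622 and 656 at P4 and at 48.4 and 53.9 at P13, and *Esam* at 647 and 1163, at 304, 260 and 193, and at 24.2 and 39.0. Both had a few counts in every E10.5 library, 3, 11 and 5 for *Pecam1* and 4, 20 and 5 for *Esam*. From P21 on, *Cdh5*, *Pecam1* and *Esam* stayed at or below 13.8 normalised counts in every in vivo library.

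*Cldn5* was the other gene whose E13.5 and P4 ranges overlapped. It stood at 666 and 1037 normalised counts at E13.5 and at 762, 687 and 610 at P4, so E13.5 replicate 1 was 0.970 times and replicate 2 1.51 times the P4 mean. It stood at 33.0 and 43.6 at P13 and at or below 5.59 in every later in vivo library, and had 2, 5 and 4 counts at E10.5. No culture library held a *Cldn5* count, whereas *Flt1* was countable in every culture library after DIV0.

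**Figure D2:**
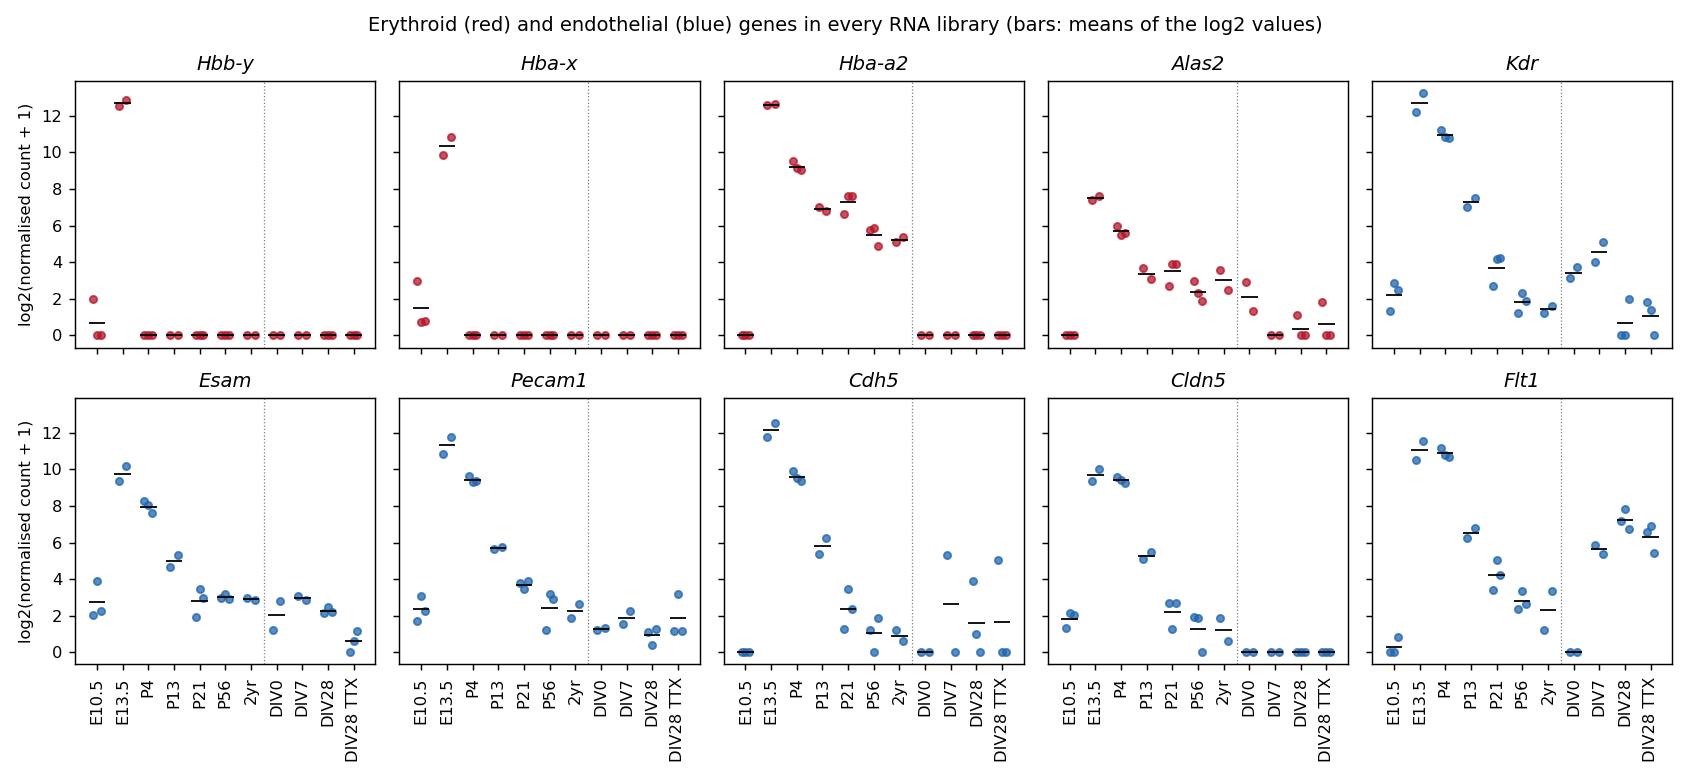
Normalised counts plus 1 of the 10 genes in each RNA library, on a log2 axis, by age or culture condition; each point is a library and each bar the mean of the log2 values. The E13.5 points are the highest of each gene except that those of *Cldn5* and *Flt1* overlap the P4 points.

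Per length, the make-up of the endothelial RNA differed between E13.5 and P4. Of the summed TPM of the 6 genes, *Cdh5* held 26.1% and 23.8% at E13.5 and 10.48% to 12.3% at P4. *Cldn5* held 15.8% and 13.4% at E13.5 and 29.0% to 31.0% at P4, and *Flt1* 6.47% and 7.76% against 16.5% to 17.4%. *Kdr* (23.1% and 26.0% against 17.8% to 19.6%), *Pecam1* (16.8% and 17.5% against 13.1% to 15.1%) and *Esam* (11.7% and 11.6% against 7.30% to 9.79%) held smaller shares at P4. The ranges of the ages did not overlap for any of the 6 genes. A share does not depend on the amount of endothelial RNA in a library, and since the E13.5 values chose the genes this is a description.

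For the contrasts that use E13.5 no test of the members is given, since their E13.5 level chose them. Of all 15030 genes tested, 24.5% were called higher at E13.5 than at E10.5 (edgeR's quasi-likelihood fit, an unadjusted p under 0.001 and at least 2-fold) and 19.0% lower at P4 than at E13.5. How many members passed the same limits follows from their choice and is not counted here. Over the 6 members with more than 1 count at E10.5 the median log2 change to E13.5 was 8.90, and over the 8 members counted at P4 the median log2 change from E13.5 was -1.70. It lay between -1.23 without E13.5 replicate 2 and -2.08 without replicate 1.

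The E13.5 libraries differed from each other in the same direction for all 6 endothelial members. Replicate 2 over replicate 1 was 1.81 for *Kdr*, 1.81 for *Flt1*, 1.67 for *Pecam1*, 1.59 for *Esam*, 1.48 for *Cdh5* and 1.37 for *Cldn5* in CPM, against a median of 0.924 over 15923 genes. All 34 measured endothelial companions were also above 1 (median 1.69). The erythroid members were less apart, at 1.73 for *Hba-x*, 1.14 for *Hbb-y*, 1.04 for *Alas2* and 0.928 for *Hba-a2*, and *Hba-a2* turned to 1.05 in normalised counts. The 16 measured erythroid companions had a median of 1.59, with 11 above 1 and a range from 0.328 to 4.02. Pericyte and smooth muscle genes had a median of 0.832, fibroblast and meningeal genes of 0.593 and motor neuron genes of 0.492, with 1 of 8 motor neuron genes above 1. The summed motor neuron level was 608 CPM in replicate 1 and 291 CPM in replicate 2, while the 6 endothelial genes summed to 2673 and 4452 CPM. Less motor neuron RNA therefore went with more endothelial RNA in replicate 2, and its part in the E13.5 levels was not tested.

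**Figure D3:**
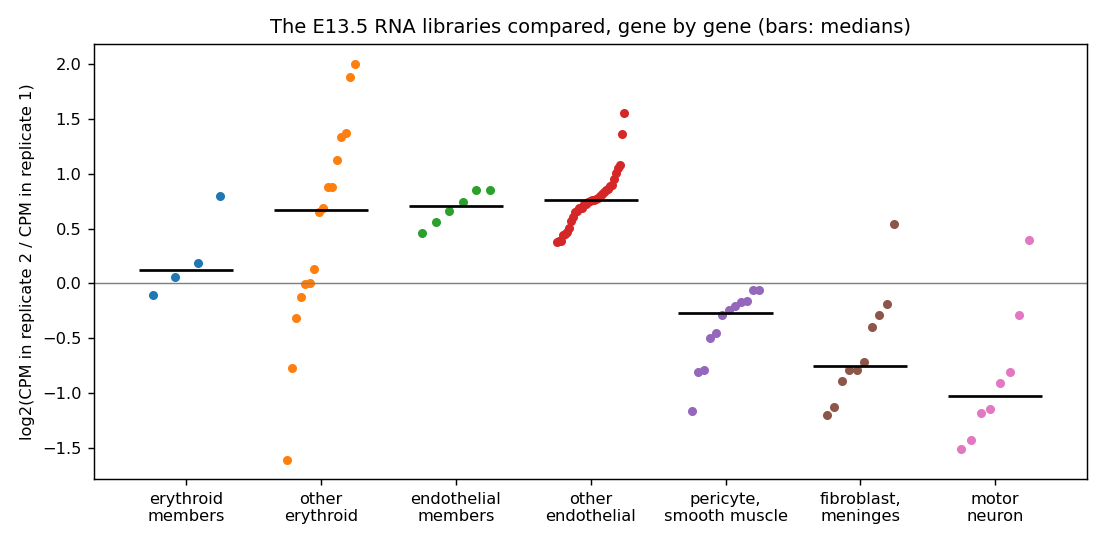
Ratio of E13.5 replicate 2 to replicate 1 in CPM, drawn as its log2. Points are the measured genes of the members and of the erythroid, endothelial, pericyte, fibroblast and motor neuron lists, with a bar at each median. Endothelial genes lie above the line drawn at a ratio of 1, and motor neuron genes lie mostly below it.

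Changes between E10.5 and P4 do not use the E13.5 libraries and were tested. Of the 10 members 8 were higher at P4, all but *Hbb-y* and *Hba-x*, against 34.4% of the 15030 genes tested. *Kdr* rose by 8.87 ± 0.40 (log2 change ± SE, adjusted p = 1.46e-12, edgeR's quasi-likelihood test, Benjamini-Hochberg adjusted over all genes), *Cldn5* by 7.93 ± 0.34 (adjusted p = 7.88e-13), *Pecam1* by 7.18 ± 0.34 (adjusted p = 2.68e-12) and *Esam* by 5.14 ± 0.38 (adjusted p = 7.41e-10). *Cdh5*, *Hba-a2* and *Alas2* had no count at E10.5 and were at least 1063-fold, 824-fold and 69.1-fold higher at P4, and *Flt1* with 1 count had a ratio of 7787 (interval 1398 to 307588). All 10 members passed the filter on low counts, 5 CPM in every library of at least 1 group, but *Hbb-y* and *Hba-x* passed it only through E13.5. No member passed it through E10.5, and the 8 called members passed it through E13.5 and P4, among other ages for some. A rise from E10.5 was thus favoured by the filter, and the count of 8 is not read as a result about the members. Each RNA library pooled several animals or embryos, and the p-values measure the spread between these libraries.

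Of the endothelial companions 31 of 34 tested rose between E10.5 and P4 (median log2 change 7.69, median of all genes 0.19). The glucose transporter *Slc2a1* fell by 2.57 ± 0.25 (adjusted p = 3.20e-08, edgeR), and *Plvap* (1.66 ± 0.69) and *Tal1* (1.60 ± 0.56) did not pass. Of the erythroid companions 4 of 7 tested rose, *Hba-a1*, *Hbb-bs*, *Hbb-bt* and *Slc4a1*, the red cell anion exchanger. The VEGF pathway genes outside the list behaved otherwise: of 9 tested, *Flt4* and *Pgf* rose, *Shb* fell and 6 did not pass, with *Vegfa* at -0.76 ± 0.17 and the co-receptor *Nrp1* at 0.88 ± 0.21.

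Between P4 and P13 all 8 members that were countable at P4 fell, and *Hbb-y* and *Hba-x* were at 0 at both ages. Of all genes tested 7.56% were called lower, and their median log2 change was 0.046. *Flt1* fell by 4.30 on the log2 scale (SE 0.38), *Cldn5* by 4.09 (SE 0.29), *Cdh5* by 3.71 (SE 0.34), *Pecam1* by 3.67 (SE 0.30), *Kdr* by 3.60 (SE 0.32) and *Esam* by 2.95 (SE 0.37). Adjusted p-values of these 6 genes lay between 7.27e-08 for *Cldn5* and 1.19e-05 for *Esam* (edgeR's quasi-likelihood test). *Hba-a2* fell by 2.23 (SE 0.28, adjusted p = 2.20e-05) and *Alas2* by 2.24 (SE 0.40, adjusted p = 0.000431), less than each endothelial gene, although the difference between the groups of genes was not tested. No P13 library reached a P4 library in any of the 8 genes. Without P13 replicate 2, *Alas2* fell by 1.99 and missed the limit. *Alas2* and *Esam* passed the filter on low counts through E13.5 and P4 and not through P13, which favoured a fall of these genes.

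The companions fell at the same step. Of 34 endothelial companions tested 32 fell, with a median log2 change of -3.66, among them *Egfl7* by 2.68 (SE 0.34), *Ecscr* by 3.67 (SE 0.36) and *Slc2a1* by 2.83 (SE 0.32). Of 7 erythroid companions 3 fell, *Hbb-bs* by 2.51 (SE 0.31), *Hbb-bt* by 1.76 (SE 0.43) and *Hba-a1* by 1.63 (SE 0.26). Pericyte and smooth muscle genes fell in 8 of 10 (median -3.03), fibroblast and meningeal genes in 2 of 9 (median -0.45), and of 9 VEGF pathway genes *Flt4* alone fell, by 3.68 (SE 0.38). Summed motor neuron genes held 698 to 864 CPM at P4 and 658 to 719 CPM at P13, while the 6 endothelial members went from 1160 to 1612 CPM to 64.4 and 96.0 CPM. The methods state a lower purity of the captured nuclei, with vessel contamination, at P4 than at P13, and the part of purity in these falls was not tested.

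**Figure D4:**
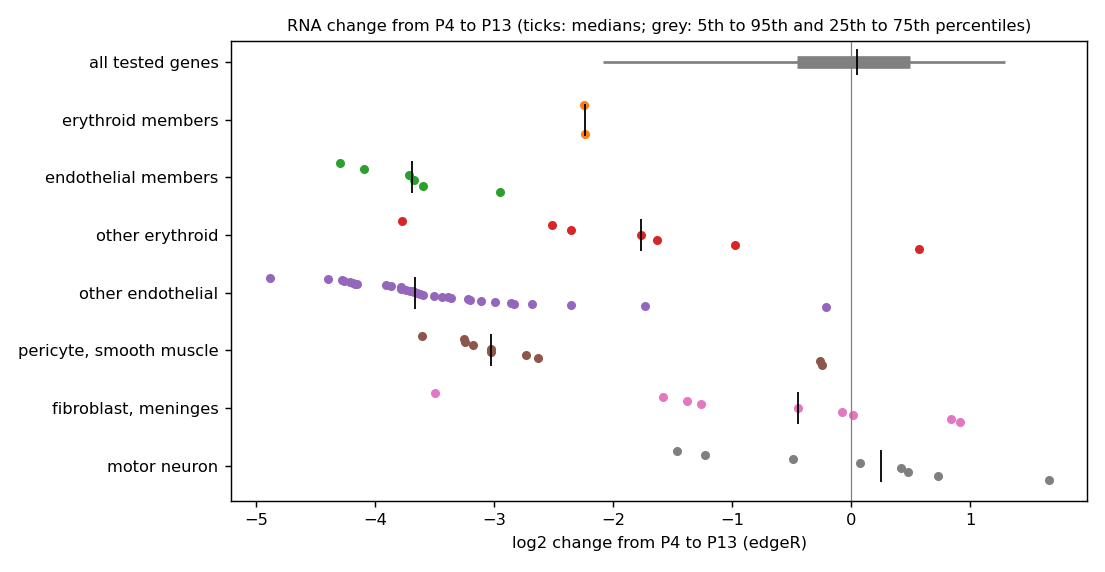
Log2 change from P4 to P13 from edgeR's quasi-likelihood fit, where negative values are lower at P13. Points are the 8 members countable at P4 and the tested genes of the erythroid, endothelial, pericyte, fibroblast and motor neuron lists. Ticks are medians, and a grey bar gives percentiles of all tested genes. The endothelial members lie between -4.30 and -2.95, the erythroid members at -2.23 and -2.24.

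Between P13 and P21 the endothelial genes fell again and neither *Hba-a2* nor *Alas2* passed the limits, while *Hbb-y* and *Hba-x* were at 0 at both ages. All 6 endothelial members were lower at P21, against 5.79% of all genes: *Kdr* by 3.60 (SE 0.39), *Cdh5* by 3.51 (SE 0.51), *Cldn5* by 3.22 (SE 0.45), *Esam* by 2.30 (SE 0.53), *Flt1* by 2.27 (SE 0.43) and *Pecam1* by 2.15 (SE 0.39), with adjusted p-values from 7.34e-06 for *Kdr* to 0.00498 for *Esam* (edgeR's quasi-likelihood test). *Hba-a2* had a log2 change of 0.33 (SE 0.27, adjusted p = 0.433, edgeR) and *Alas2* of 0.07 (SE 0.46, adjusted p = 0.971, edgeR). *Alas2* had 23 and 8 counts at P13 and 4, 10 and 10 at P21. These are too few for the absence of a call to say that it did not differ. *Alas2* and *Esam* passed the filter on low counts only through E13.5 and P4, and *Esam* held 14 counts over the P21 libraries. *Kdr*, *Flt1*, *Pecam1*, *Cdh5* and *Cldn5* passed it through E13.5, P4 and P13 and not through P21. For these genes a fall to P21 was thus favoured by the filter, and the count of 6 is not read as a result about the members. *Esam* lost its call without P13 replicate 2 (log2 change -1.98), without P21 replicate 1 (-1.95) or without P21 replicate 3 (-2.35).

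In the adult the levels were low. From P21 to P56 *Hba-a2* fell by 1.81 (SE 0.28, adjusted p = 0.0266, edgeR), the only member of 10 past the limits, against 0.126% of all genes called lower. Its libraries did not overlap between these ages (97.6 to 195 against 28.1 to 58.0 normalised counts). At an unadjusted p under 0.05, 4 members passed in edgeR, and 2 were called by DESeq2. From P56 to 2 years no member of 10 passed in edgeR or in DESeq2, 0 had an unadjusted p under 0.05, and 0.659% of all genes were called in either direction. *Hba-a2* alone reached the filter level of 5 CPM in every library of either age, *Hbb-y* and *Hba-x* were at 0 in both, and the other 7 genes were too low for the absence of a call to say that they did not differ. At 2 years *Hba-a2* and the haem gene *Alas2* were still counted in both libraries, as was each of the 6 endothelial genes.

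In culture the erythroid globins were at 0 in all 10 libraries, and *Flt1* was the only member that passed the filter on low counts, through DIV7, DIV28 and DIV28 TTX. *Flt1* had no count at DIV0 and stood at 58.2 and 40.8 normalised counts at DIV7, at 143, 228 and 107 at DIV28 and at 94.1, 118 and 41.6 with TTX. It rose from DIV0 to DIV7 (adjusted p = 0.000942, edgeR), at least 22.6-fold over a floor of 3 counts in the DIV0 libraries together, while 8.36% of 12890 genes were called higher. *Flt1* passed the filter through the later groups and not through DIV0, which favoured a rise from DIV0. From DIV7 to DIV28 its log2 change was 1.72 (SE 0.51, adjusted p = 0.0403, edgeR) and missed the limit on the unadjusted p, with 3.65% of all genes called higher; DESeq2 made no call either, while a fit with the replicate number as a block did (log2 change 2.01). Without the library titled DIV0 replicate 3 the change was 1.94, again without a call. With TTX the change was -0.92 (SE 0.42, adjusted p = 0.638, edgeR), with 0.403% of all genes called lower, 0 members called by DESeq2 and 0 at an unadjusted p under 0.05. Without the library titled DIV0 replicate 3 it was -1.14, also without a call. The ranges of DIV28 and DIV28 TTX libraries overlapped, but within each of the 3 same-numbered pairs, which deviated together across genes, the TTX library was the lower. With the pairs as a block the log2 change was -0.98 and made no call.

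The other endothelial genes were scattered in culture. *Cdh5* had 21 and 0 counts at DIV7, 12, 3 and 0 at DIV28 and 25, 0 and 0 with TTX, so a single library held most of the counts of each condition. *Kdr* had 6 and 8 counts at DIV0, 8 and 26 at DIV7 and at most 4 in any later library. *Esam* had at most 14 and *Pecam1* at most 15 counts in any culture library. These genes were at or near the detection floor of 3 counts in most culture libraries.

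The genes most like the members over the 18 in vivo libraries were ranked for the endothelial and the erythroid group. These libraries include those of E13.5, whose high values chose the members. Likeness among the members, and to other genes high at E13.5, was therefore favoured by that choice. With the mean log2 level of the 6 endothelial members, *Pcdh12*, an endothelial protocadherin, correlated at 0.991, *Dipk2b* at 0.990, *Cd93* at 0.989, *Jcad*, an endothelial junction protein, at 0.988 and *Erg*, an ETS factor of endothelium, at 0.988 (Pearson's r, description only, libraries sharing age and depth). Of the 35 endothelial companions 22 were among the 100 most similar of 17200 genes ranked. Each endothelial member correlated with the mean of the others at 0.961 to 0.992. With the mean of the 4 erythroid members the highest were *Plvap*, which forms the diaphragms of fenestrated endothelium, at 0.962, *Sh3bp5* at 0.951, *Necap2* at 0.944, and the platelet genes *Clec1b* and *Pf4* at 0.941. *Clec1b* stood at 59.1 and 193 and *Pf4* at 64.6 and 124 normalised counts at E13.5, with 0 counts at E10.5 and at most 4.49 normalised counts in a P4 library. Of 9 erythroid companions ranked 4 were among the 100 most similar, as were 3 of the 35 endothelial ones. The erythroid members were less alike among themselves, at 0.684 to 0.830.

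ATAC-seq was read as peaks, each ranked within its library by −log10 p, and given as the percent of peaks at or above it. In vivo libraries held 80386 to 189868 peaks. A promoter peak was a summit within 1000 bp of an annotated start. Of the 10 members 5 had no promoter peak in any of the 14 in vivo libraries, *Hbb-y*, *Hba-x*, *Hba-a2*, *Alas2* and *Pecam1*, against 6.92% of 15005 genes. The genes of the erythroid group were thus without a promoter peak at E13.5, where *Hbb-y* and *Hba-a2* were at 2152 and 2840 and at 2835 and 3037 TPM in other libraries of that age. Near-identical copies such as *Hba-a1* and *Hba-a2* may lose ATAC reads, and how the authors' filter treated such reads was not tested.

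*Kdr*, *Esam* and *Cldn5* had a promoter peak in all 14 in vivo libraries, as did 79.3% of genes, and together with *Flt1* they made 4 members with a peak in both E13.5 libraries, against 85.6% of genes. *Flt1* had it in 7 of 14 libraries, within the top 16.4% and 19.3% at E13.5, 32.6% and 35.7% at E10.5, and 69.8% to 78.6% in 1 library each of P4, P13 and P21. *Cldn5* was within the top 21.2% and 18.002% at E13.5, and its best rank at another age was 25.3%. By this percent, both E13.5 libraries stood ahead of the other 12 in vivo libraries for *Flt1* and *Cldn5*, as for 8.07% of genes. The percent depends on the length of the list, 179718 and 156485 peaks at E13.5 against 80386 and 97002 at E10.5, and the order did not hold by rank number. *Flt1* was peak number 29412 and 30211 at E13.5 and 26220 in E10.5 replicate 1, and *Cldn5* was number 38092 and 28171 at E13.5, 25206 in E10.5 replicate 1 and 24305 in P4 replicate 2. No order of accessibility between ages is read from these ranks. *Kdr* was within the top 19.0% and 25.9% at E13.5 and the top 13.1% and 15.98% at E10.5, while its fold enrichment over the local background was 15.5 and 8.58 at E13.5 and 5.81 and 8.23 at E10.5. *Esam* was within the top 21.4% and 30.5% at E13.5 and the top 17.5% and 23.1% at E10.5, with fold enrichments of 11.3 and 6.77 and of 4.58 and 6.12. Both genes thus had a promoter peak at E10.5, where their RNA was near 0. *Cdh5* had a promoter peak in E10.5 replicate 1 alone, within the top 79.7% and at a fold enrichment of 2.29.

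**Figure D5:**
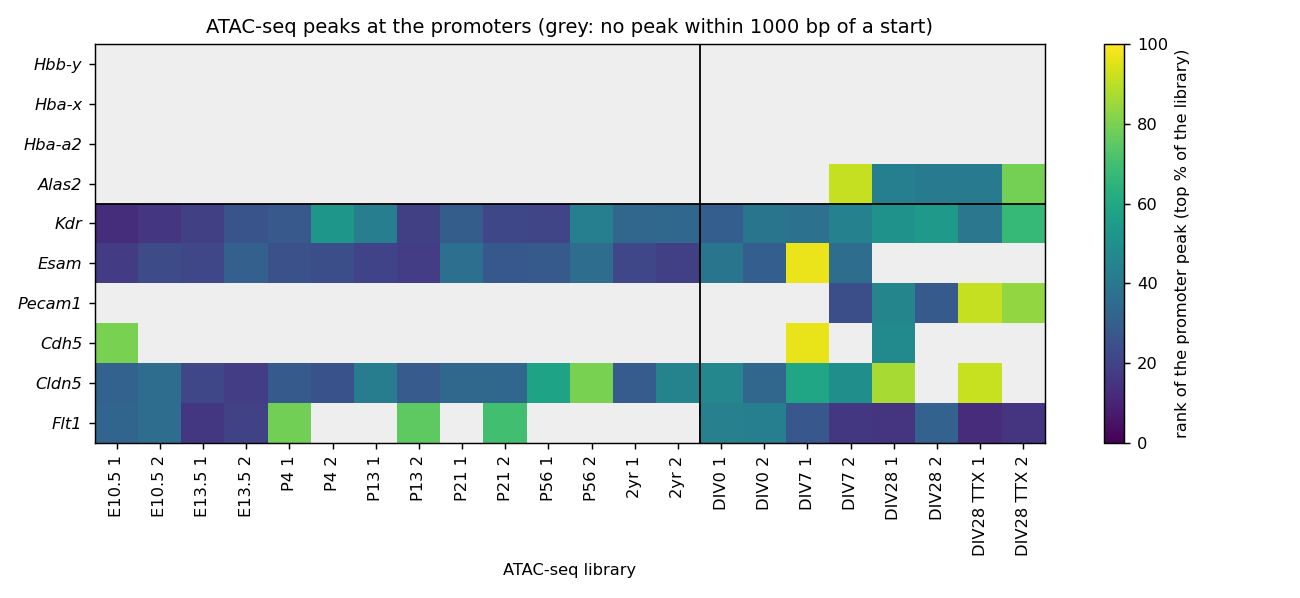
Rank of the highest promoter peak of each member in each ATAC library, as the percent of the library's peaks at or above it, with an empty cell where no summit lay within 1000 bp of a start. The 4 erythroid genes and *Pecam1* have no peak in vivo, and *Flt1* has none at P56 and 2 years but 1 in each culture library. Lists differ in length between libraries, so the percent is not an order of accessibility.

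Genes with this much RNA rarely lacked a promoter peak. Of the genes with at least 30 CPM in both E13.5 RNA libraries, 96.9% had a promoter peak in both E13.5 ATAC libraries and 1.53% had none in vivo. Among the 5550 protein-coding genes at that level, 40 (0.721%) had none. They held all 7 erythroid members and companions at that level and 10 of 36 endothelial ones, *Tie1*, *Aplnr*, *Rasip1*, *Emcn* and *Plvap* among them, and the 4 with the highest RNA were *Hbb-y* (1216 CPM in the lower E13.5 library), *Hba-a2* (1175 CPM), *Hba-a1* (499 CPM) and *Pecam1* (386 CPM). The limit of 30 CPM was chosen after the values were seen, and it uses the E13.5 RNA levels that chose the members. That members passed it, or stood highest in RNA, is therefore not read as a result. At 10 CPM 67 of 9134 genes and at 100 CPM 13 of 1841 genes lacked a peak, of which 18 and 10 were in the erythroid and endothelial lists. Motor neuron genes had a promoter peak in both E13.5 libraries in 7 of 8, endothelial companions in 21 of 35 and erythroid companions in 6 of 22. The motor neuron gene without it was *Chat*, which marks the labelled cells. *Chat* had a peak within the top 39.2% in replicate 1, none in replicate 2, and a peak in 10 of 14 in vivo libraries. RNA and ATAC libraries came from different preparations, bead capture and flow sorting, and the methods state blood vessel contamination of the E13.5 nuclei for RNA and high purity of those for ATAC-seq. The nuclei for RNA also came without thoracic cord, which those for ATAC-seq included. The part of these differences in the contrast was not tested.

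Peaks present in both E13.5 libraries and no other in vivo library, 33518 in the genome, lay within 10 kb of 5 members, *Flt1* (3 peaks), *Cdh5* (2), *Pecam1* (2), *Kdr* (1) and *Hba-x* (1), and of 30.2% of genes. *Flt1* spans 164408 bp against a median of 21546 bp, and a longer gene has more room for a peak. The strongest was in an intron of *Flt1*, at chr5:147597832-147598451, 128007 bp from the start, with a fold enrichment of 20.2 and within the top 14.5% in E13.5 replicate 1, a higher rank than the *Flt1* promoter in the same library. The next was 4486 bp from the start of *Hba-x*, downstream of the gene at chr11:32280744-32281003, with a fold enrichment of 11.9 and within the top 26.7%, and was the only one near an erythroid member. The third lay in an intron of *Kdr*, at chr5:75976232-75976481, 2090 bp from the start, with a fold enrichment of 6.18 and within the top 47.3%. The 200 bases around their summits are shown on the plus strand of mm10, as the strongest such peak at each VEGF receptor, at chr5:147597904-147598103 and chr5:75976268-75976467, with the same capitals.
Flt1 intron: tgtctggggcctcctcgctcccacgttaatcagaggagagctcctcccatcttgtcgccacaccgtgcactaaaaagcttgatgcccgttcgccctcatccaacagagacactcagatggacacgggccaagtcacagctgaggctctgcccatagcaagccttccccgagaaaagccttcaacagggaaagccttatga
Kdr intron: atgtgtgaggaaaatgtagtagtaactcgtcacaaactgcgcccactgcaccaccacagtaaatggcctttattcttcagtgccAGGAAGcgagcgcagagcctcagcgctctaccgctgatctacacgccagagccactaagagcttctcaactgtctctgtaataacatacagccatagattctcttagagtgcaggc
The *Flt1* window holds none of the 4 capitalised motifs and the *Kdr* window 1 ETS motif, present in 22.7% of 179712 windows of the same length at E13.5 peaks. The other intronic peaks, in *Cdh5* (within the top 51.4%) and *Pecam1* (64.1% and 84.2%), were weaker, and *Cdh5* also had 1 upstream of its start, at -1713 bp (55.0%). The remaining peaks of *Flt1* lay at -1020 bp from its start (84.3%) and at 163353 bp (99.0%). *Hbb-y*, *Hba-a2*, *Alas2*, *Esam* and *Cldn5* had no such peak.

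In the 8 culture ATAC libraries *Flt1* had a promoter peak in each, within the top 12.8% to 43.5%, and *Kdr* in each, within the top 29.98% to 67.1%. *Alas2* and *Pecam1*, without a promoter peak in vivo, had 1 in DIV7 replicate 2 and in all 4 libraries of DIV28 and DIV28 TTX, within the top 40.6% to 91.3% and 24.0% to 91.1%. *Hbb-y*, *Hba-x* and *Hba-a2* had none in culture either. *Esam* had a promoter peak in each DIV0 and DIV7 library and in none of DIV28 and DIV28 TTX. *Cldn5* lacked a peak in replicate 2 of DIV28 and of DIV28 TTX, and *Cdh5* had a peak only in replicate 1 of DIV7 and of DIV28. The share of all genes was not computed for culture, and in vivo 79.3% had a promoter peak in every library. No result about the members is read from these counts. *Alas2* and *Pecam1* RNA stayed at 15 counts or fewer in every culture library.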

How the data were processed

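RNA-seq libraries were made from nuclear RNA, or whole-cell RNA at E10.5, and ATAC-seq libraries from Tn5-tagmented DNA. For RNA-seq the authors trimmed reads with Trim Galore, aligned them to mm10 with STAR 2.5.2b and deposited RSEM 1.3.0 output, of which the expected counts and the TPM of each gene were used. For ATAC-seq the authors mapped trimmed reads to mm10 by bwa mem, marked duplicates out by samtools and ran MACS2 2.2.7.1 on each library with paired fragments and a p limit of 0.01. The deposited peak lists give each summit's fold enrichment, which is a ratio to local background, and −log10 p and −log10 q values. Read depth behind the peaks is unknown, so they were compared by presence and by rank within a library.

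Members and lists were chosen with earlier results of these data known. Expected counts were rounded for tests, and genes with at least 5 CPM in every library of at least 1 group were kept, 15030 in vivo and 12890 in vitro. Each set was fitted in R 4.3.3 with edgeR 4.0.16 (TMM scaling, quasi-likelihood test, no covariate), with the study's limits (p under 0.001 before adjustment, 2-fold or more), and Benjamini-Hochberg adjusted p-values over all genes of a set are given. DESeq2 1.42.0 was an alternative. Normalised counts are counts divided by a median-of-ratios size factor from 12842 genes. A fold against a group without counts is a bound against 3 counts over that group, and 95% intervals are exact Poisson intervals of the counts; both cover counting error only. Tables were handled with Python 3.11.15, pandas 2.3.3, numpy 2.4.6 and scipy 1.17.1, and the test across genes was checked on simulated data.

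Peak summits were set against GENCODE vM21 starts by gene identifier without version (15005 of 15030 tested genes matched), and sequences were read from RefSeq GRCm38.p6. The genes named were the 10 members, the 3 genes of each list with the highest TPM at E13.5, the 5 genes most like each group of members, *Chat* and *Isl1*, and others named were chosen after their values were seen. *Ahsp* of the erythroid list was not analysed here. Same-numbered DIV28 and DIV28 TTX libraries deviated together from their group means (r = 0.686, 0.568 and 0.740 over 10764 genes), and their numbers were taken as pairs. The alternatives were no filter, other scaling, DESeq2, adjusted p-values, only the libraries compared, a replicate block, leaving out each library, and other distances and limits for peaks.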

Additional observations from a re-analysis of the deposited data

How the results depend on the processing

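The alternatives were run for 26 changes of single members, those described as called and the later steps of *Flt1* in culture, and each of the 26 kept its direction; changes near 0 were not rerun. The 8 members higher at P4 than at E10.5 were 8 under each alternative. Members called lower from P4 to P13 numbered 7 to 8, and from P13 to P21 5 to 6, when a library was left out. Leaving out a library gave a median log2 change of 8.33 to 9.45 from E10.5 to E13.5 and of -2.08 to -1.23 from E13.5 to P4, and 5 to 6 members without a promoter peak in vivo. For P21 to P56, 1 member was called, against 3 without the filter on low counts and 2 with DESeq2; for DIV0 to DIV7, 1 against 2 without the filter. For DIV7 to DIV28, no member was called, against 1 by the adjusted p, 1 without the filter and 1 with the replicate block; the causes were not tested.

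The replicate block changed no other call of members. With the block the *Flt1* change with TTX was -0.98, and no call was made, and in vivo the correlation of same-numbered libraries ran from -0.103 (P4 to P13) to 0.226 (P21 to P56). It was over 0.1 for every shared number only from P13 to P21, with 2 pairs, and in vivo numbers were not taken as pairs.

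Counts over all genes moved more. Genes called lower from P4 to P13 numbered 1137, against 650 and 737 without P13 replicate 1 and replicate 2. Those called lower from P21 to P56 numbered 19, against 10 to 71. Those called higher from DIV0 to DIV7 numbered 1077, against 568 to 1887, and from DIV7 to DIV28 470, against 173 to 1166. Those called lower with TTX numbered 52, against 18 to 179. Most members had few counts from P21 on, and the part of depth in the few adult calls was not tested.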

Other observations

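Other vessel genes changed relative to each other between E13.5 and P4, with values given as a description. *Plvap*, of fenestrated endothelium, stood at 33.3 and 101 TPM at E13.5 and at 0.67 ± 0.29 TPM (SD, n = 3) at P4. Transporters of barrier endothelium differed among themselves. The glucose transporter *Slc2a1* was lower at P4, at 124 and 235 TPM at E13.5 and at 32.7, 17.4 and 12.3 TPM at P4. *Slc2a1* also stood at 236, 345 and 172 TPM at E10.5, where the endothelial members had few or no counts. Its fall is therefore not read as a change of vessel RNA, and the cells that held it were not tested. The organic anion transporters were higher at P4: *Slco1c1* stood at 13.9 ± 3.8 TPM (SD, n = 2) at E13.5 and at 38.6 ± 16.2 TPM (SD, n = 3) at P4, and *Slco1a4* was at 0 in both E13.5 libraries and at 9.47 ± 3.03 TPM (SD, n = 3) at P4. *Mfsd2a*, the lipid transporter of barrier endothelium, stood at 31.3 ± 12.01 TPM at E13.5 and at 32.6 ± 12.4 TPM at P4, within the spread between libraries. *Slc2a1*, *Slco1c1*, *Slco1a4* and *Mfsd2a* were picked out after their values were seen.

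The pericyte gene *Rgs5* stood at 38.7 and 40.3 TPM at E13.5 and at 80.8 ± 42.9 TPM (SD, n = 3) at P4, and the summed pericyte and smooth muscle genes at 501 and 601 CPM at E13.5 and at 809 to 1209 CPM at P4. Fibroblast and meningeal genes were the reverse, at 568 and 904 CPM at E13.5 and at 96.8 to 162 CPM at P4. *Vegfa*, the ligand of *Kdr* and *Flt1*, stood at 3399 and 3414 normalised counts at DIV0 and at 418 and 216 at DIV7, and fell by 3.42 on the log2 scale (SE 0.33, adjusted p = 3.21e-05, edgeR's quasi-likelihood test). It rose again from DIV7 to DIV28 by 2.16 (SE 0.30, adjusted p = 0.00113, edgeR), to 1354 to 1438 normalised counts, with the library titled DIV0 replicate 3 included. In vivo it was at 172 and 204 normalised counts at E13.5 and at 194 to 241 at P4, with overlapping ranges.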
